A study of Mus musculus with 9 samples.

Results

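Complement components and regulators are represented here by 9 listed genes, C3, Hc, C6, C8a, C8b, C8g, C9, Cfb and Cfi, taken as the rows of the deposited tables that carry these gene names. Of the 9, 8 had a row among the 42188 genes of the tables, and all 8 passed the filter on low counts. Hc, the mouse gene of complement C5, had no row of that name and is not analysed here. Liver RNA of 9 mice was sequenced in 3 groups of 3. MSA_ConA mice received 250 mg/kg of MSA, read here as the mesaconate of the study's title, into the peritoneum 6 h before 20 mg/kg of concanavalin A into the tail vein. ConA mice received the same dose of concanavalin A alone, a lectin from jack bean whose T cell activation injures the mouse liver. Control mice received phosphate-buffered saline by tail vein. All mice are labelled wild-type C57BL/6J males of 8 weeks and 20 to 25 g, livers were taken 12 h after concanavalin A, and each library bears a number from 1 to 3 within its group.

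Complement is a cascade of plasma proteins made largely by hepatocytes. Its pathways meet at C3, whose cleavage marks surfaces for uptake, and end in the membrane attack complex, in which C5b, C6, C7, C8 and C9 assemble into a pore. Factor B carries the protease of the alternative-pathway C3 convertase, and factor I is the protease that inactivates C3b. In liver, C3 and factor B are known as acute-phase genes.

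The libraries held 13294600 to 17276391 counts, and transcripts of sex, strain and clock divided them by their number. Xist, the RNA of the inactive X chromosome, reached 0.485 CPM (counts scaled to a library total adjusted by TMM, explained below) in number 1. It lay between 667 and 1132 CPM in numbers 2 and 3, which goes against the male label of those 6 libraries. Mup21, a urinary protein gene of male liver that shares reads with close copies, lay at 251 CPM or more in number 1 and did not exceed 1.44 CPM elsewhere. Nnt, partly deleted in C57BL/6J, ran from 29.8 to 34.7 CPM in number 1 and from 168 to 266 CPM in the 6 others. The higher Nnt of those 6 raises doubt about their C57BL/6J label, which counts per gene cannot settle. The clock genes Arntl and Dbp ran from 22.1 to 29.6 and from 6.02 to 10.3 CPM in number 1, against 1.35 to 3.60 and 99.9 to 251 CPM. Libraries are therefore named by their labels, and a sex or strain difference cannot be told apart from any other difference between the numbers. Skeletal muscle markers summed to 4975 CPM in the library labelled MSA_ConA 3, 373 CPM in MSA_ConA 2, 121 CPM in MSA_ConA 1, 399 CPM in ConA 2 and 68.9 CPM in ConA 3. The sum in MSA_ConA 1 was nearly all Atp2a1 (119 CPM), with Acta1 at 0.264 CPM and Ckm and Myh1 at 0. In ConA 1 and the controls the sum was 0.885 to 3.40 CPM. The hepatocyte markers, among them Alb at 64323 to 100260 CPM, were present throughout. In whole tissue, fewer cells of a type and less RNA per cell cannot be told apart. CPM values are scaled by TMM, the trimmed mean of M values, and serve within a gene. Levels of different genes are compared as FPKM, which is per length.

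C3 had the highest level of the 8 transcripts, at a median of 1678 FPKM in number 1 and 1701 FPKM in numbers 2 and 3. Cfb had the lowest, at 0.811 FPKM in number 1 and 1.08 FPKM in numbers 2 and 3. This level and rank are uncertain, since 99.4% of the Cfb span lies inside Gm20547, a same-strand gene model with 0 counts in every library. Between C3 and Cfb the order differed by number. In number 1, C8g, C8b, C9, Cfi, C8a and C6 followed C3 at medians of 460, 256, 242, 242, 221 and 115 FPKM, of which C8b, C9, Cfi and C8a overlapped over the 3 libraries, C8g overlapped with C9 and Cfi, and C6 lay below the others. In numbers 2 and 3, Cfi at 260 FPKM and C8g at 205 FPKM followed C3, ahead of C8a at 68.9, C9 at 37.0, C8b at 27.6 and C6 at 1.86 FPKM. There Cfi overlapped with C8g, and C9 with both C8a and C8b. The 8 genes together took 0.727% to 1.59% of the counts of a library, most of it C3 (0.482% to 1.37%).

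**Figure D1:**
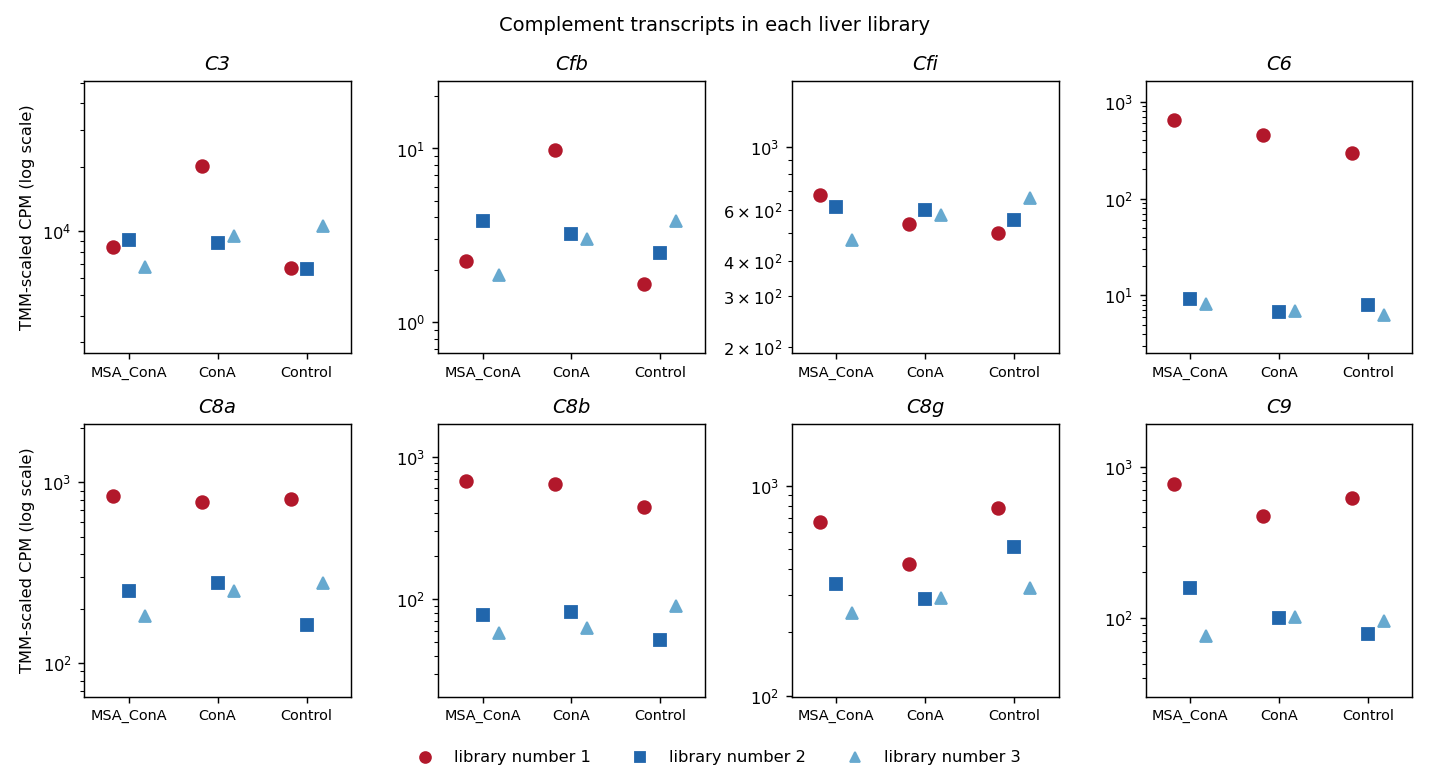
TMM-scaled CPM (log scale) of the 8 complement transcripts in the MSA_ConA, ConA and Control libraries, with 1 point per library and colour and shape for the library number. C6, C8a, C8b and C9 are higher in every number 1 library than in any other library, whereas C3 and Cfb are highest in ConA 1.

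Number 1 libraries held more C6, C8 and C9 transcript than the 6 others. With a group term, edgeR's quasi-likelihood test with Benjamini-Hochberg adjustment called 5 of the 8 complement transcripts higher and 0 lower, where 19.1% of the 14603 tested genes were called higher and 19.2% lower. The median log2 fold change was 1.34 over the 8 transcripts and -0.10 over all tested genes. With library totals in place of TMM the median over all tested genes was -0.81, so fold changes by number are lower on that scale. The 5 were C6, C8a, C8b, C8g and C9. The number division was known when the genes were chosen, and the responses of ConA 1 and MSA_ConA 1 enter this comparison.

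C6, which binds C5b and begins the assembly of the pore, lies at chr15:1699238-1774030 on the plus strand of the C57BL/6NJ assembly whose identifiers the tables use. It measured 654, 458 and 293 CPM in the libraries labelled MSA_ConA 1, ConA 1 and Control 1. In numbers 2 and 3 it measured 9.25 and 8.25 CPM in MSA_ConA, 6.76 and 6.99 CPM in ConA and 7.99 and 6.30 CPM in Control. The number classes did not overlap, and the counts behind them were 3927 to 4960 in number 1 and 121 to 167 in numbers 2 and 3. The log2 fold change of number 1 over numbers 2 and 3 was 5.90 (SE 0.22, adjusted p = 1.20e-05 by edgeR). Within a group, number 1 was 74.8-fold above the mean of numbers 2 and 3 in MSA_ConA, 66.7-fold in ConA and 41.0-fold in Control. As CPM of the library total these were 35.1-fold, 37.9-fold and 33.8-fold, without that order.

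C8 is a protein of 3 chains, alpha and beta from the neighbouring genes C8a and C8b and gamma from C8g on another chromosome. C8b (chr4:109168820-109212858, plus strand) measured 676, 648 and 445 CPM in MSA_ConA 1, ConA 1 and Control 1. Libraries numbered 2 and 3 had 77.3 and 57.5 CPM in MSA_ConA, 81.5 and 63.3 CPM in ConA and 51.8 and 90.2 CPM in Control. The number classes again did not overlap, with a log2 fold change of 3.06 (SE 0.24, adjusted p = 0.000245 by edgeR). C8a (chr4:109226230-109289454, minus strand) measured 839, 774 and 809 CPM in MSA_ConA 1, ConA 1 and Control 1. Its other values were 250 and 183 CPM in MSA_ConA, 277 and 251 CPM in ConA and 163 and 279 CPM in Control. These too were lower in all 6 libraries, with a log2 fold change of 1.80 for number 1 (SE 0.22, adjusted p = 0.00124 by edgeR).

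C8g (chr2:24134934-24140162, minus strand) differed least of the called genes. It measured 673, 422 and 783 CPM in MSA_ConA 1, ConA 1 and Control 1. The 6 other libraries had 338 and 247 CPM in MSA_ConA, 288 and 293 CPM in ConA and 510 and 325 CPM in Control. Here the classes overlapped, since Control 2 lay above ConA 1. The log2 fold change was 0.89 (SE 0.23, adjusted p = 0.0161 by edgeR). The call was lost without MSA_ConA 1 (adjusted p = 0.0692 by edgeR) and, with library totals in place of TMM, the log2 fold change was 0.17 (adjusted p = 0.570 by edgeR). C8g also overlaps Fbxw5 on the opposite strand over 970 bases, 18.6% of its span. Whether counting used strand is not given in the sources used here, so its counts are uncertain.

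The balance between the 3 chains differed by number accordingly. The ratio of C8b to C8a in FPKM was 1.15, 1.20 and 0.787 in MSA_ConA 1, ConA 1 and Control 1. In numbers 2 and 3 it was 0.441 and 0.448 in MSA_ConA, 0.421 and 0.360 in ConA and 0.454 and 0.463 in Control. C8b over C8g was 0.334 to 0.901 in number 1 and 0.0596 to 0.166 in numbers 2 and 3. C8a over C8g was 0.424 to 0.753 in number 1 and 0.131 to 0.395 in numbers 2 and 3. These ratios do not depend on library scaling, and the number classes did not overlap in any of them. The ratios to C8g share the uncertainty of its counts. No separate test was made of the ratios, and the share of other gene pairs without overlap was not counted.

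**Figure D2:**
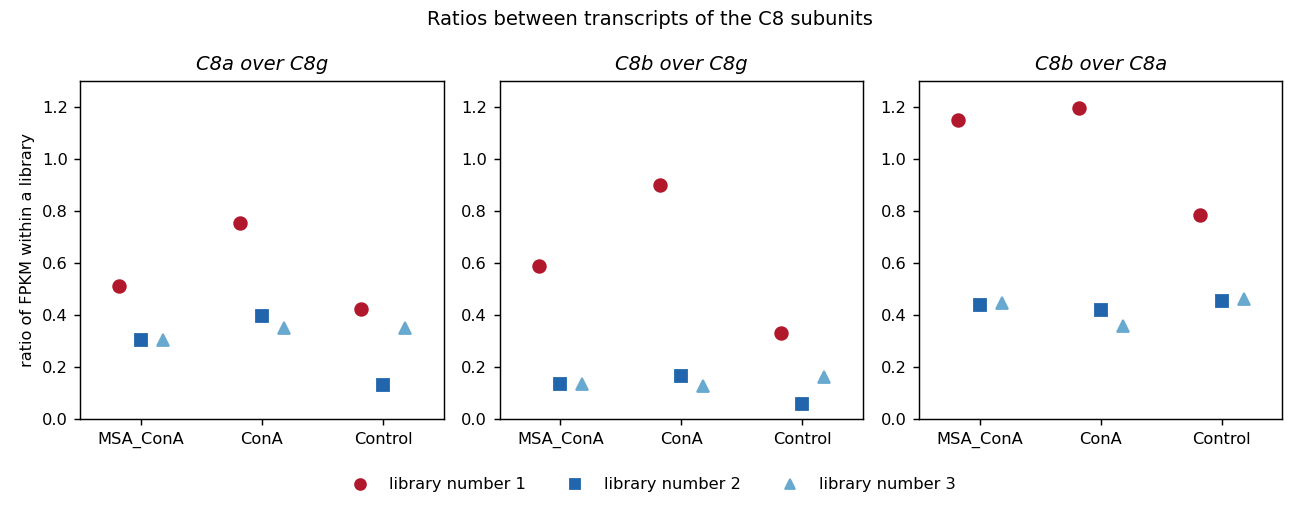
Ratios of deposited FPKM between C8a, C8b and C8g within each MSA_ConA, ConA and Control library, 1 point per library, with colour and shape for the library number. C8b over C8a is 0.787 to 1.20 in number 1 and 0.360 to 0.463 in numbers 2 and 3.

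C9, whose copies polymerise to line the pore, lies at chr15:3570404-3626978 on the plus strand. It measured 761, 471 and 623 CPM in MSA_ConA 1, ConA 1 and Control 1. Values in the 6 others were 158 and 75.6 CPM in MSA_ConA, 99.3 and 102 CPM in ConA and 78.8 and 95.5 CPM in Control. The classes did not overlap, with a log2 fold change of 2.60 for number 1 (SE 0.25, adjusted p = 0.000569 by edgeR). C6, C8a, C8b and C9 also did not overlap between the number classes as FPKM or as CPM of the library total, and edgeR and the other tools called them under every alternative run. Of all tested genes, 14.8% were higher in number 1 without overlap.

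**Figure D3:**
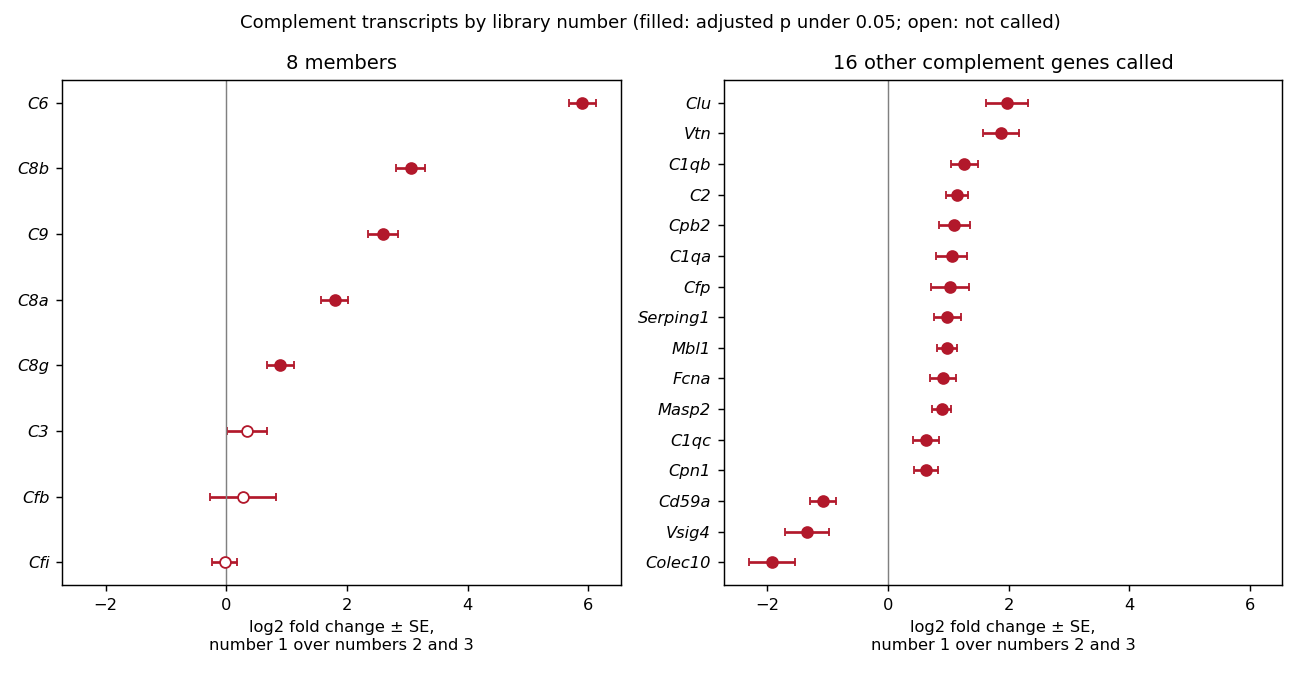
Log2 fold change of number 1 over numbers 2 and 3 with its standard error, for the 8 complement transcripts and for 16 other complement genes called, from edgeR with the group in the model. Filled points were called. C6 lies farthest to the right at 5.90, and the call of C8g was lost with library totals.

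The sequences upstream of C6, C8a, C8b and C9 are shown because these transcripts were high in the same 3 libraries, and that of C3 because it was not. They are the 250 bases before the start in RefSeq's GRCm38.p6, read along the gene, which is another build than that of the positions above. RefSeq windows were found for 6 of the 8 genes, Cfb and Cfi not among them. The windows are chr15:4726960-4727209 (plus strand) for C6, chr4:104876399-104876648 (minus strand) for C8a, chr4:104766067-104766316 (plus strand) for C8b, chr15:6445096-6445345 (plus strand) for C9 and chr17:57228137-57228386 (minus strand) for C3. Capitals mark matches to 5 motifs searched on both strands.
C6: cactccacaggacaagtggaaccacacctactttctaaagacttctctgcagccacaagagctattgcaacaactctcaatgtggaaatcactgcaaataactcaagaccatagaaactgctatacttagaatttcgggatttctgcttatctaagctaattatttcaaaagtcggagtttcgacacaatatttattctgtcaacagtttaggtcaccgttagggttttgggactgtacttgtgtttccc
C8a: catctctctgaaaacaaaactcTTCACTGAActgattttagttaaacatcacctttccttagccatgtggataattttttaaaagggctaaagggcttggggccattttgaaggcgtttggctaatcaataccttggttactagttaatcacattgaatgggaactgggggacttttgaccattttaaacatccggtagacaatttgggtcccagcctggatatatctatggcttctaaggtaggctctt
C8b: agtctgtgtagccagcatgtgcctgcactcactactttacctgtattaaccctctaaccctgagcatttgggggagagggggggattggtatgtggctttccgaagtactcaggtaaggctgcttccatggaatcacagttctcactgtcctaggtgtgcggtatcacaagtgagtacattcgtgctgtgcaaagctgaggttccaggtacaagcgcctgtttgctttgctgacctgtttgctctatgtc
C9: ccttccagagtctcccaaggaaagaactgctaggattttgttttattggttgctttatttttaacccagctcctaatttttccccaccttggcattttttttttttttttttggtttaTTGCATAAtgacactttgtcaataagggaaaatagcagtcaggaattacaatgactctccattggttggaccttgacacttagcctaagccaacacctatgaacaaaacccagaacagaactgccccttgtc
C3: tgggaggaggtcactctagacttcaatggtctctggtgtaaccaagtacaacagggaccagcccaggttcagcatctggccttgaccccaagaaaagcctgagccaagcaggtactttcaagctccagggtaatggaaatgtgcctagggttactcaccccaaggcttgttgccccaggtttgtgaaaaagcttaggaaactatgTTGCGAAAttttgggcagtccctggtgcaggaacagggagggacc

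The windows of the 4 genes shared no match to a common motif. The motif of C/EBP, a family of acute-phase transcription factors, spelled TTGCNNAA, matched in C9 from 132 to 125 bases before the start and in C3 from 45 to 38 bases before it, and is held by 9.56% of 32851 windows. The STAT motif TTCNNNGAA matched in C8a and is held by 7.02% of windows. The motif of the liver factor HNF4, CAAAGNCCA, matched in 1 of the windows of C8g (1.7% of all windows). The motifs of NF-kappa-B (4.65% of windows) and of the liver factor HNF1 (0.134%) matched in none of the members' windows. C6 and C8b held no match, which says only that these letters are not in these windows.

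C3 and Cfb were high in a single library, ConA 1. C3 (chr17:61267678-61293597, minus strand) measured 8462, 9068 and 6774 CPM in MSA_ConA 1 to 3, 20379, 8760 and 9539 CPM in ConA 1 to 3, and 6701, 6648 and 10589 CPM in Control 1 to 3. ConA 1 stood above all other libraries, while ConA 2 and ConA 3 lay within the range of the controls. As CPM of the library total its lead was smaller, with 13692 in ConA 1 and 11776 in Control 3, the next highest. Among the libraries numbered 1, C3 was 3.04-fold higher in ConA than in Control (exact 95% interval 3.02 to 3.06) and 2.41-fold lower in MSA_ConA than in ConA (2.39 to 2.43). As CPM of the library total, the ratio was 2.15 for ConA over Control and 0.352 for MSA_ConA over ConA. With 1 library on each side these ratios have no replicate check, and the intervals cover counting error only.

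Cfb (chr17:36305501-36311641, minus strand) measured 2.24, 3.82 and 1.86 CPM in MSA_ConA 1 to 3, 9.80, 3.20 and 3.01 CPM in ConA 1 to 3, and 1.64, 2.51 and 3.80 CPM in Control 1 to 3. ConA 1 was again the highest and the other 8 libraries overlapped. It rested on 17 to 101 counts per library. Of its span, 99.4% lies inside Gm20547, a gene model on the same strand that has 0 counts in every library, so its counts are uncertain. In number 1, Cfb was 5.98-fold higher in ConA than in Control (3.74 to 9.96) and 4.37-fold lower in MSA_ConA than in ConA (2.60 to 7.80). As CPM of the library total, the ratio was 4.23 for ConA over Control and 0.194 for MSA_ConA over ConA.

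Of the 8 transcripts, C3 and Cfb had a ratio of CPM + 1 of at least 2 for ConA 1 over Control 1, which 18.3% of tested genes had, and 0 were at least 2-fold lower (17.6%). The same 2 were at least 2-fold lower in MSA_ConA 1 than in ConA 1, where 15.3% of tested genes were, and 0 were at least 2-fold higher (11.5%). Both ratios share ConA 1. Between MSA_ConA 1 and Control 1, C6 alone of the 8 was at least 2-fold higher (15.9% of tested genes) and 0 were lower (18.4%). In numbers 2 and 3 the ratio of ConA to Control was 1.32 and 0.901 for C3 and 1.28 and 0.793 for Cfb.

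**Figure D4:**
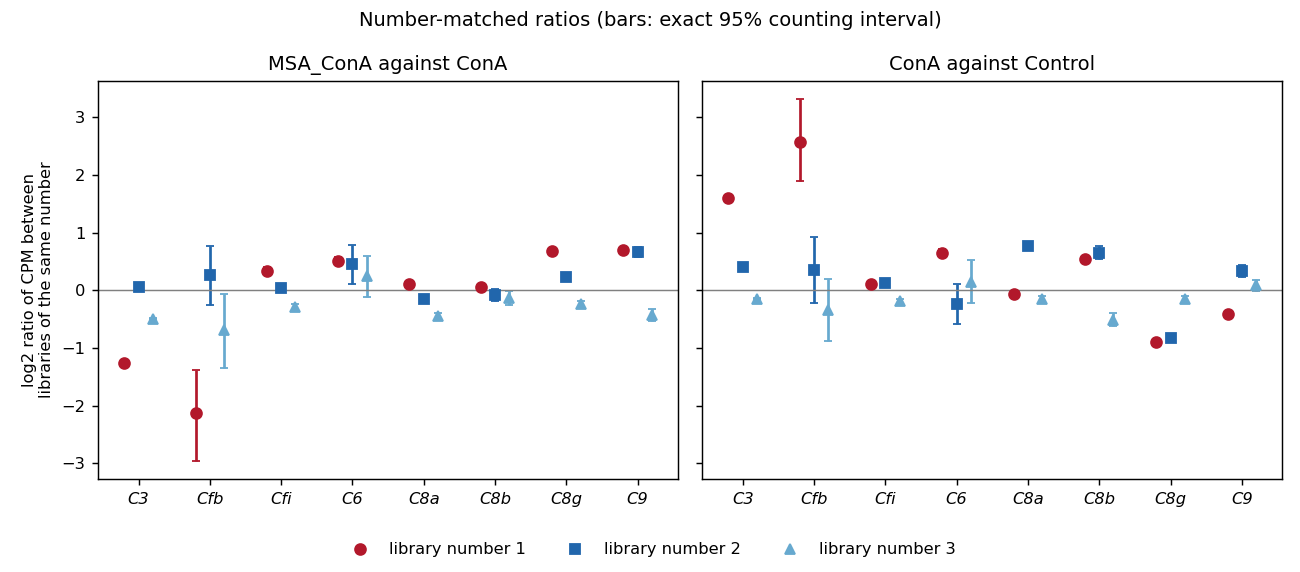
Log2 ratio of TMM-scaled CPM between libraries of the same number, for MSA_ConA over ConA and ConA over Control, with exact 95% counting intervals. In number 1, C3 and Cfb lie above 0 for ConA over Control and below 0 for MSA_ConA over ConA; both panels share the ConA libraries, and no point has replicates.

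The difference itself was tested with a mean for each group and number class. The effect of ConA was larger in number 1 than in numbers 2 and 3 by 1.52 on the log2 scale for C3 (SE 0.47, adjusted p = 0.0468 by edgeR) and by 2.60 for Cfb (SE 0.74, adjusted p = 0.0343 by edgeR). These were 2 of the 8 transcripts called higher, where 15.7% of tested genes were, and 0 were called lower (15.4%); in either direction 31.1% of tested genes were called. With 3 residual degrees of freedom, this fit takes the spread of a lone number 1 library to equal that of numbers 2 and 3. By edgeR, the C3 call was lost without Control 3 (1.12, adjusted p = 0.133), without ConA 2 (adjusted p = 0.132) and without ConA 3 (adjusted p = 0.117). The Cfb call was lost without Control 2, Control 3, ConA 2 or ConA 3, with adjusted p of 0.0503, 0.101, 0.0737 and 0.0857 by edgeR. For MSA_ConA against ConA the difference between number classes was -1.06 for C3 (SE 0.47, adjusted p = 0.156 by edgeR) and -1.99 for Cfb (SE 0.75, adjusted p = 0.104 by edgeR), and 0 of 8 were called, where 18.7% of tested genes were (8.59% higher, 10.1% lower).

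Over all 9 libraries, edgeR called 0 of the 8 transcripts and 0 of 14603 genes (0%) in each group comparison, where 248 genes had an unadjusted p under 0.05 for MSA_ConA against ConA, 563 for ConA against Control and 730 for MSA_ConA against Control. DESeq2 called 0, 2 and 55 genes in these comparisons, and limma-voom 0 in each. All 8 transcripts overlapped between the groups. Without overlap, 2.34% of tested genes were higher and 2.54% lower in MSA_ConA than in ConA, 5.66% higher and 6.64% lower in ConA than in Control, and 6.44% higher and 7.34% lower in MSA_ConA than in Control. C3 had a log2 fold change of -0.67 for MSA_ConA against ConA (SE 0.48, adjusted p = 0.9999 by edgeR) and 0.69 for ConA against Control (SE 0.48, adjusted p = 0.9997 by edgeR). Cfb had -1.004 (SE 0.62) and 0.9997 (SE 0.62) in the same comparisons, which share the ConA libraries. Without ConA 1 these values were -0.18 and 0.20 for C3 and -0.24 and 0.22 for Cfb. The median over the 8 was 0.04, 0.25 and 0.04 in MSA_ConA against ConA, ConA against Control and MSA_ConA against Control, and 0.02, 0.07 and 0.07 over all tested genes. The spread in these fits includes the division by number, so a count of 0 does not show that groups did not differ.

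C6 followed another order than C3 within number 1, with MSA_ConA 1 the highest and Control 1 the lowest. It was 2.23-fold higher in MSA_ConA 1 than in Control 1 (2.14 to 2.33), but 1.34-fold as CPM of the library total. The MSA_ConA effect against Control was larger in number 1 by 0.87 on the log2 scale (SE 0.29, adjusted p = 0.0527 by edgeR), which missed the threshold, as did all 8 transcripts, where 32.6% of tested genes were called (16% higher, 16.6% lower). For C6, DESeq2 gave an adjusted p of 0.0313 and limma on FPKM one of 0.0242, whereas with library totals the difference was 0.052 (adjusted p = 0.902 by edgeR). In numbers 2 and 3, C6 in MSA_ConA was 1.16-fold (0.924 to 1.45) and 1.31-fold (1.03 to 1.67) that in Control. Over all 9 libraries its log2 fold change was 1.13 (SE 2.20, adjusted p = 0.999 by edgeR), and 0.58 with the library number as a block (SE 0.27, adjusted p = 0.634 by edgeR).

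Cfi, the protease that inactivates C3b, varied least. Lying at chr3:137253298-137303540 on the plus strand, it measured 678, 617 and 474 CPM in MSA_ConA 1 to 3, 536, 603 and 578 CPM in ConA 1 to 3, and 499, 554 and 659 CPM in Control 1 to 3. All groups and both number classes overlapped on this scale. As CPM of the library total the number classes did not overlap, at 360 to 474 in number 1 and 598 to 733 in numbers 2 and 3. The log2 fold change of Cfi for number 1 was -0.03 (SE 0.20, adjusted p = 0.923 by edgeR). With library totals it was -0.75 (adjusted p = 0.0110 by edgeR), where the median over all tested genes was -0.81. C3 and Cfb, not called either, had 0.34 (SE 0.33) and 0.28 (SE 0.54), and both were below 0 with library totals.

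Among 48 other complement genes listed, 37 had a row and 32 were tested. In number 1 against numbers 2 and 3, edgeR called 13 of the 32 higher and 4 lower, where 19.1% and 19.2% of all tested genes were. Clusterin (Clu) and vitronectin (Vtn), inhibitors of the pore, were called higher at log2 fold changes of 1.97 (SE 0.34) and 1.88 (SE 0.30). So were the C1q chains C1qa, C1qb and C1qc, the convertase component C2, and the lectin pathway genes Mbl1, Fcna and Masp2. Properdin (Cfp), the C1 inhibitor (Serping1) and the carboxypeptidases Cpn1 and Cpb2 completed the 13. Clu measured 5910, 5773 and 1960 CPM in MSA_ConA 1, ConA 1 and Control 1, and 894 to 1324 CPM in numbers 2 and 3. Vtn measured 9865, 6435 and 4528 CPM in the same libraries numbered 1, and 1469 to 2387 CPM in numbers 2 and 3. Both were higher in MSA_ConA 1 and ConA 1 than in Control 1, so the treated libraries enter these fold changes. Colec10, a collectin, at -1.92 (SE 0.38), Vsig4, a receptor of Kupffer cells for C3 fragments, at -1.34 (SE 0.36), and Cd59a, an inhibitor of C9 insertion, at -1.07 (SE 0.22) were among those called lower. C7, the remaining pore component measured, was at 0.298 to 3.17 CPM in every library and was not called.

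With at least 10 CPM in either library, 3 of the 37 had a ratio of CPM + 1 of at least 4 for ConA 1 over Control 1, which 5.89% of tested genes had, and 0 were at least 4-fold lower (2.4%). Masp1, a protease of the lectin pathway, was at 143 CPM in MSA_ConA 1, 134.7 CPM in ConA 1 and 28.2 CPM in Control 1, with 65.1 to 107 CPM in the 6 others. C5ar1, a C5a receptor of myeloid cells, was at 1.45, 10.2 and 1.12 CPM in MSA_ConA 1, ConA 1 and Control 1. Itgb2, the beta chain of leukocyte complement receptors, was at 7.39, 34.9 and 4.77 CPM in the same 3. Monocyte and neutrophil markers, 5 of 6 of them in the table, summed to 53.7 CPM in MSA_ConA 1, 384 CPM in ConA 1 and 5.10 to 10.2 CPM in the 7 others. In ConA 1, S100a8 and S100a9 made up 111 and 262 CPM of this sum, while Ccr2 was at 0.874 CPM, its lowest value, and Itgam was at or near 0 throughout. Their part in the C5ar1 and Itgb2 values was not tested. Cfd, the protease that activates factor B, reached 18.6 CPM in MSA_ConA 3, 31.9 CPM in ConA 2 and no more than 1.85 CPM in the 7 others. The 6 adipocyte markers, of which Cfd is one, summed to 120 CPM in MSA_ConA 3 and 97.9 CPM in ConA 2, where Adipoq reached 7.996 and 7.948 CPM and Plin1 15.0 and 9.81 CPM. The sum of 91.5 CPM in ConA 1 was nearly all Fabp4 (90.6 CPM), with Adipoq, Plin1, Lep and Retn at 0.

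Transcripts of inflammatory signalling were high in both treated libraries numbered 1. Socs3, a feedback inhibitor of STAT3 signalling, measured 892 CPM in MSA_ConA 1, 1329 CPM in ConA 1 and 17.97 CPM in Control 1, and Cebpb, a transcription factor of the acute phase, 1000.3, 1876 and 97.8 CPM. Irf1 and Nfkbia, induced by interferon gamma and NF-kappa-B, instead measured 14.2 and 116 CPM in MSA_ConA 1, 1749 and 1748 CPM in ConA 1, and 44.1 and 29.0 CPM in Control 1.

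The genes most like each transcript over the 9 libraries, by Pearson's r of log2(CPM + 1) among 7862 genes, were Mup21 (0.997) and Cyp7b1 (0.996) for C6, Serpina3k for C8b (0.992) and for C8a (0.986), Mup5 (0.993) for C9 and Arrdc2 (0.989) for C8g. For C3 it was Ptprk (0.976), for Cfb Lsr (0.972) and for Cfi Ces1c (0.904). Libraries that fall into separate sets by number raise such values, which are descriptions only.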

How the data were processed

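The authors deposited raw counts per gene and FPKM, counts scaled by gene length and a library total, for 9 mouse liver libraries. Per the labels' protocols, RNA was extracted with Trizol and libraries were made with an Illumina kit. The submitters' processing notes name mm8, mm10 and Bowtie 0.12.2; for their roles, the counting tool and its strand setting, nothing is given in the sources used here. Groups and numbers come from the titles, and columns headed M were read as MSA_ConA.

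The members and gene lists were chosen with earlier results of these data known. All 8 matched members and the other complement genes that met a rule of call or fold are named, except 1 that is counted but not reported here. The deposited counts were tested with edgeR 4.0.16 (R 4.3.3, quasi-likelihood, TMM, default filter by group, 14603 genes, Benjamini-Hochberg adjusted p under 0.05), with 6 residual degrees of freedom for groups. TMM factors ran from 0.571 to 1.26, lowest in number 1. DESeq2 1.42.0, limma-voom and limma 3.58.1 on log2(FPKM + 1), other scalings, filters and designs, and leaving out each library were alternatives; library totals and leaving out ConA 2 and MSA_ConA 3 together were added after the data were seen. The procedures were also run on simulated counts. Those simulated for a group comparison held no division by number, so they do not bear on the absence of edgeR calls in the group comparisons here. The p-values of the group comparisons rest on the spread among 3 libraries per group. Those of number 1 against numbers 2 and 3 rest on the spread left after terms for group and number class. Those of the differences between number classes rest on the spread between numbers 2 and 3 within a group.

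Deviations from group means correlated at 0.479 to 0.713 between libraries numbered 1, 0.349 to 0.553 between those numbered 2 and 0.303 to 0.472 between those numbered 3, each over the bound of 0.1 for taking numbers as pairs. Numbers 2 and 3 correlated with each other at 0.313 to 0.681, so these 2 are not shown to be separate pairs. Deviations from a group mean balance out within the group, so a difference of number 1 shared by the groups raises all of these values by itself. Passing the bound therefore does not show that libraries of the same number are pairs.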

Additional observations from a re-analysis of the deposited data

Results flagged for a closer look

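The effect of ConA against Control differed between number 1 and numbers 2 and 3 for C3, by 1.52 on the log2 scale, and for Cfb, by 2.60. Each was past the threshold in edgeR's test of the difference itself, as were 31.1% of all tested genes (15.7% higher, 15.4% lower). The 2 calls among 8 transcripts therefore do not set complement apart from other genes. Each difference rests on ConA 1 and Control 1, which have no replicate of their own number. Of the monocyte and neutrophil markers, S100a8 and S100a9 were high in the same library, at 111 and 262 CPM in ConA 1 and 0.746 and 1.64 CPM in Control 1, while Ccr2 was at 0.874 and 1.42 CPM and Itgam at 0 in both; their part was not tested. Both calls were lost when ConA 2, ConA 3 or Control 3 was left out, and the C3 call also under limma-voom (adjusted p = 0.0514).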

How the results depend on the processing

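In number 1 against numbers 2 and 3, C6, C8a, C8b and C9 stayed called in every alternative, at log2 fold changes of 5.15 to 6.12, 1.09 to 1.91, 2.33 to 3.23 and 1.90 to 2.77. C8g was 0.17 with library totals, 0.72 without MSA_ConA 1 and 0.81 without ConA 2 and MSA_ConA 3, its call lost in each; leaving out 1 library gave 0.72 to 1.05. With library totals C3 was -0.39, Cfb -0.46 and Cfi -0.75, the last called lower; Cfb was -0.089 without ConA 2 and MSA_ConA 3. Cfi was above 0 with RLE scaling (0.028), DESeq2 (0.027) and limma on FPKM (0.0045). Leaving out 1 library gave -0.13 to 0.64 for C3, -0.64 to 0.81 for Cfb and -0.22 to 0.076 for Cfi.

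For the ConA effect in number 1 minus that in numbers 2 and 3, C3 was 1.48 by limma-voom, 1.497 by limma on FPKM, 0.97 with library totals and 1.45 without ConA 2 and MSA_ConA 3, each no longer called, and Cfb was 2.05 with library totals, no longer called. Leaving out 1 library gave 1.12 to 1.80 for C3 and 2.25 to 2.84 for Cfb. For the MSA_ConA effect against ConA, Cfb was called at -2.48 without MSA_ConA 3 and at -2.49 without ConA 2 and MSA_ConA 3, with -2.48 to -1.39 over the libraries left out. For MSA_ConA against Control, the C6 difference was called at 0.91 by DESeq2 and 0.99 by limma on FPKM, and was 0.052 with library totals. The C6 group difference there, 1.13, ran from -3.55 without MSA_ConA 1 to 4.94 without Control 1, fits that leave the number 1 library on 1 side only, and was 0.58 with the replicate block. Cfb in ConA against Control was -0.038 in numbers 2 and 3 only. The causes were not tested.

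Genes called were 2 for ConA against Control and 55 for MSA_ConA against Control by DESeq2. Number 1 against numbers 2 and 3 gave 2250 genes without ConA 2 and MSA_ConA 3, with fewer libraries, and 4016 to 8145 over the libraries left out. The difference of the MSA_ConA effect against ConA gave 1623 by limma-voom, 1710 without ConA 2 and MSA_ConA 3, and 1368 to 2649 over the libraries left out. A difference of the ConA or MSA_ConA effect between number classes could not be fitted without the number 1 library it needs. In the fit with a replicate block for the library number, 0 genes were called in each group comparison and no call changed.

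Fitted fold changes of the group comparisons are given in the text for C3, Cfb and C6 only, a selection made after the alternatives had been seen. Over all 8 transcripts and the 3 group comparisons, the sign differed from the reported fit in 89 of 480 refitted values, for each of the 8 in at least 1, and 0 of the 480 were called. Of those not given in the text, 87 of 380 changed sign. Directions of uncalled differences, and the medians over the 8, are therefore not settled by these data. Number 1 libraries, with 1 per group, limit what can be compared between treatments.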
